A study of Mus musculus with 4 samples.

Results

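The interleukin-1 (IL-1) family was followed here as 8 genes, picked by symbol from the 23481 genes of a count table of mouse 4T1-T breast cancer cells. They comprised the ligands Il1a, Il1b, Il18 and Il33, the antagonist Il1rn, and the receptor chains Il1r1, Il1rap and Il1rl1. 4T1-T is a derivative of the mammary carcinoma line 4T1, and all of the cells carried silencing of Asns, the gene of asparagine synthetase. RNA was sequenced from cells grown in DMEM without asparagine (2 libraries, A and B) and from cells grown in DMEM with asparagine (2 libraries, A and B), the comparison the design poses. No library of cells with intact Asns was analysed here, and the labels do not give the silencing construct, the number of clones or the time in each medium. The family was picked with results of this comparison already known, so the fold changes, calls and adjusted p-values of its members are given as a description of a fit over all genes and support no claim by themselves. Of the 8 genes, 6 passed the filter on low counts and were among the 12843 genes tested. Il1b and Il1rn did not pass it. Il33 passed it on the libraries with asparagine, since only 1 of the 2 libraries without asparagine reached the required level of 0.431 CPM, that is, reads of a gene in every 1000000 gene counts of a library.

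IL-1 alpha (Il1a) and IL-1 beta (Il1b) are inflammatory cytokines that bind the receptor chain encoded by Il1r1, which then recruits the accessory protein encoded by Il1rap. The receptor antagonist encoded by Il1rn occupies Il1r1 without recruiting the accessory chain. IL-33 acts through ST2, the product of Il1rl1, together with the same accessory protein, and IL-18 acts through its own pair, Il18r1 and Il18rap. All of these receptors signal through the adaptor MyD88 and IRAK kinases to NF-kB and MAP kinases. IL-1 alpha and IL-33 are kept in epithelial cells as alarmins that are released on damage, whereas IL-1 beta and IL-18 are cut to their active form by caspase-1.

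Among the ligands, Il1a rose without asparagine, with 4.31 and 3.76 CPM in libraries A and B, against 0.630 and 0.701 CPM with asparagine. Il33 had values in the other direction, 0.382 and 0.850 CPM without asparagine against 2.44 and 2.17 CPM with it, and did not pass the test. The receptor chain Il1r1 and the shared chain Il1rap were the most abundant members per length of exon and had somewhat lower values without asparagine, and Il1rl1 had higher ones, with no call for any of these. Il1b and Il1rn were barely detected. In the edgeR quasi-likelihood test 1 of the 6 tested members, Il1a, was called at an adjusted p under 0.05, beside 1.85% of all genes tested. The count was 2 with DESeq2, which also called Il33 as lower and which called 3.61% of all genes. A fit with a library left out takes its spread between libraries from the pair left intact. Its calls are therefore no check on the spread within the other group. With a library left out, the share of all genes called was 16% (A) and 41.8% (B) for the libraries without asparagine, and 0.522% (A) and 0.459% (B) for those with asparagine. The members called were 5 in each of the first pair of fits and 1, Il1a, in each of the second pair.

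**Figure D1:**
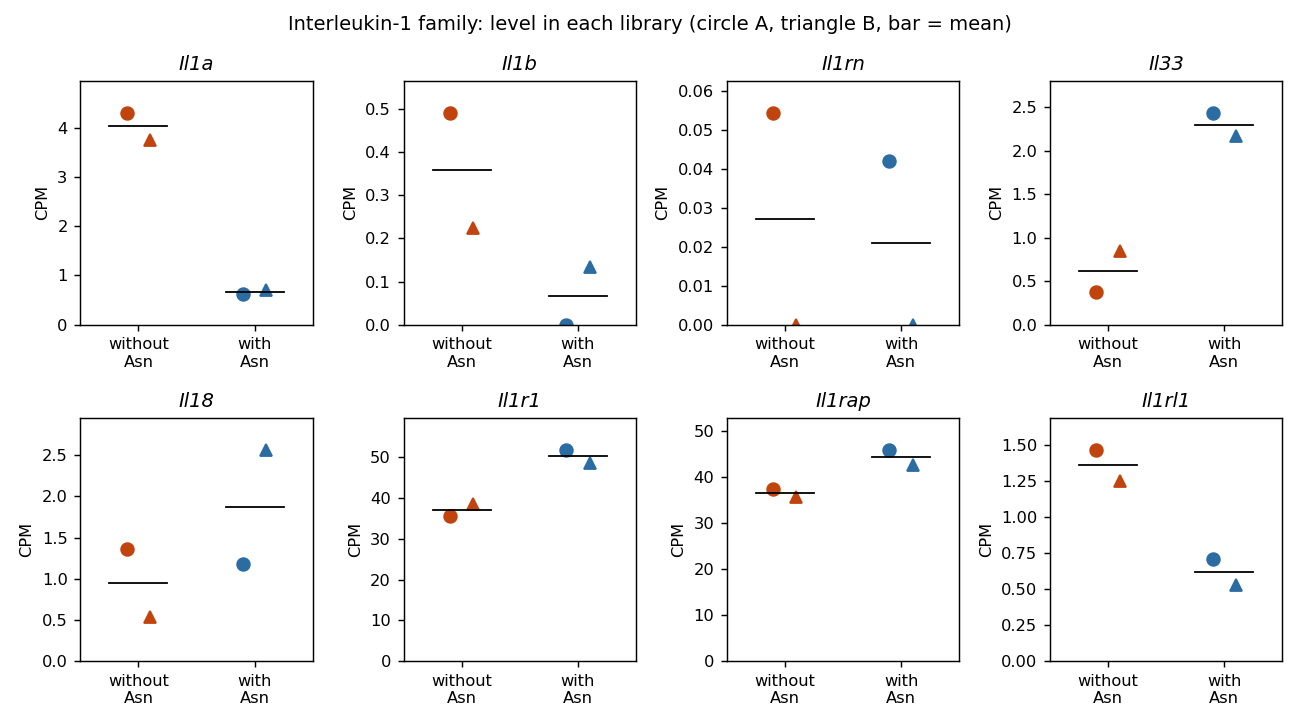
Level of each of the 8 family genes in CPM (vertical axis, linear from 0, a different scale in each panel) in the libraries without asparagine (left) and with asparagine (right). Circles are library A, triangles library B and bars the mean of each group. Il1a lies at 4.31 and 3.76 CPM without asparagine against 0.630 and 0.701 CPM with it, Il33 has the opposite order, and the groups overlap for Il18 and Il1rn.

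The libraries held between 17977552 and 30260582 gene counts, so that 1 read was worth between 0.0334 and 0.0545 CPM. Library A without asparagine stood apart, with 56.6% of its reads outside annotated features against 46.3% to 49.3% in the other libraries, and with the largest share of the ribosomal precursor Rn45s (3.53% against 0.884% to 1.66% of gene counts). The level of Asns itself was 75.0 (A) and 89.2 (B) CPM without asparagine, against 103 (A) and 101 (B) CPM with it, which does not check the silencing, since all of the cells carried it. The part of the differences between libraries in the results below was not tested. Of the epithelial markers all 8 were tested, and they summed to between 993 and 1019 CPM without and between 829 and 921 CPM with asparagine. Their values did not all move alike, with 6 higher and 2 lower without asparagine. Of the 8, 1 was called, beside 1.85% of all genes tested. This was Epcam, which was higher without asparagine (log2 fold change 0.68, edgeR adjusted p = 0.0368). Markers of leukocytes, which are the main source of several of these cytokines in tissue, summed to less than the epithelial markers did. The macrophage list summed to between 11.8 and 12.5 CPM without and between 11.4 and 11.6 CPM with asparagine, most of it Cd68 and Cd14, while the macrophage gene C1qa had 0 reads in every library. A single neutrophil marker of the 7 that were counted was tested, and the list summed to at most 1.85 CPM in any library. S100a8 had 12 and 4 reads without and 1 and 5 with asparagine, near the 9 and 5 against 0 and 4 of Il1b. Lymphoid and mast cell markers other than Gata3, which mammary epithelium also expresses, had at most 6 reads in a library, and Cd3e and Nkg7 had 0. Cd79a had 6 and 4 reads without and 3 and 4 reads with asparagine. Of the endothelial markers 2 of 5 were tested, and their sum was between 0.671 and 1.47 CPM without and between 1.43 and 1.60 CPM with asparagine. The fibroblast list summed to between 18.5 and 23.3 CPM without and between 41.3 and 43.4 CPM with asparagine, nearly all of it the receptor gene Pdgfra, and its other members had at most 10 reads in a library. Pdgfra was called as lower without asparagine (log2 fold change -1.03, edgeR adjusted p = 0.0221). In RNA from whole cultures, fewer cells expressing a gene and less RNA per cell cannot be told apart.

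Il1a lies on the minus strand of chromosome 2 from 129299610 to 129309972 (mm10, GENCODE M21). It had 79 and 84 reads in libraries A and B without asparagine, against 15 and 21 reads with asparagine. Both libraries without asparagine lay far above both with it, and the libraries of a group were close to each other. The mean was 4.03 ± 0.388 CPM without and 0.666 ± 0.0496 CPM with asparagine (SD, n = 2 each). The log2 fold change, coded throughout as without minus with asparagine, was 2.58 ± 0.27 (SE, edgeR adjusted p = 0.00830), and it was 2.48 without the library A that stood apart. Exons of Il1a share 222 bases with exons of Gm14023 on the opposite strand, and the use of strand in the counting is not given in the sources used here. Gm14023 had 10 and 18 reads of its own without and 3 and 16 reads with asparagine. Scaled by depth, both libraries without asparagine lay above both with it, the same direction as Il1a. Library A without asparagine was then close to library B with it. Whether reads of Gm14023 entered the Il1a counts was not tested.

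The 250 bases before the RefSeq start of Il1a (GRCm38.p6, minus strand, chr2:129309973-129310222) are shown because Il1a was the member with the largest fold change. The windows before both RefSeq starts of Il33 (plus strand, chr19:29924863-29925112 and chr19:29945540-29945789) are shown because it had the smallest, and the counts do not tell which start was used. Each is written 5′ to 3′, and capitals mark matches to an AP-1 motif.
Il1a: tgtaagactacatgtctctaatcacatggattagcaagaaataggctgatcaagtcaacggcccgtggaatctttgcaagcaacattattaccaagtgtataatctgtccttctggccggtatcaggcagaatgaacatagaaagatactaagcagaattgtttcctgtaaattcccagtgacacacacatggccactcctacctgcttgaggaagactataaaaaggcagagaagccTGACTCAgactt
Il33 start 1: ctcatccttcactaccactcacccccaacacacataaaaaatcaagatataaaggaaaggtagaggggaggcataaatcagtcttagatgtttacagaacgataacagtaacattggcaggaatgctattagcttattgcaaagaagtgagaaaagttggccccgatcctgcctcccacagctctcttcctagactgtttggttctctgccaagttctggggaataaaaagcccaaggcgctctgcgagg
Il33 start 2: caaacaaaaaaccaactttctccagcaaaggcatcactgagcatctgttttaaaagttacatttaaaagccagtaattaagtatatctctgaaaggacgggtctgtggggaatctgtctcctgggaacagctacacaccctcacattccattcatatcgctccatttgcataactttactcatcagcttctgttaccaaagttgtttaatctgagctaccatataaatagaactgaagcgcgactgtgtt
RefSeq windows were found for all 8 members, 13 windows in all. Both strands of each were searched for the kappaB motif, for the AP-1 motif TGANTCA, for the amino acid response element TGATGNAA and for the cyclic AMP response element TGACGTCA, and no matches overlapped. The Il1a window held 1 match to the AP-1 motif, TGACTCA, which ended 6 bases before the start. The window before 1 of the starts of Il1rn also held an AP-1 match, against 6.75% of 32851 windows of all genes. A kappaB match was found before 1 of the starts of Il1r1 and in 3.90% of all windows. The amino acid and cyclic AMP response elements were in 0 of the 13 family windows, against 3.45% and 1.55% of all windows. No listed motif was found in either Il33 window. A match describes letters in a window and not a bound site.

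Il33 lies on the plus strand of chromosome 19 from 29925114 to 29960718. It had 7 and 19 reads without asparagine in libraries A and B, against 58 and 65 reads with asparagine. Both libraries without asparagine lay below both with it, and they differed from each other more than the libraries with asparagine did. The mean was 0.616 ± 0.331 CPM without and 2.30 ± 0.190 CPM with asparagine (SD, n = 2 each). This gave a fold change of -1.85 ± 0.38 on the log2 scale (SE, edgeR adjusted p = 0.0720). Leaving out library A or B without asparagine gave -1.42 and -2.57, and leaving out library A or B with asparagine gave -1.78 and -1.94. Reads of Il33 do not distinguish its start sites.

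Il18, which encodes a cytokine that drives interferon gamma release in lymphocytes, lies on the plus strand of chromosome 9 from 50554827 to 50581840. It had 1.36 and 0.537 CPM without asparagine, against 1.18 and 2.57 CPM with asparagine. The groups overlapped, and the spread within each was wide, with 25 and 12 reads without and 28 and 77 reads with asparagine. The log2 fold change was -1.04 ± 0.53 (SE, edgeR adjusted p = 0.356). It was -0.34 without library B with asparagine, which held the 77 reads, and -1.46 without library A of that medium. Dropping library A or B without asparagine gave -1.83 and -0.50.

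Il1b and the antagonist gene Il1rn lie on chromosome 2, from 129364570 to 129371139 on the minus strand and from 24336853 to 24351494 on the plus strand. Il1b had 9 and 5 reads without asparagine, against 0 and 4 reads with asparagine. The ratio of the summed reads, scaled by depth, was 4.62, with an exact 95% interval of 1.45 to 19.3 that covers counting error only and not the spread between libraries. Il1rn had 1 and 0 reads without asparagine, against 1 and 0 reads with asparagine. At 3 reads, the limit that a count of 0 allows, its level was up to 0.134 CPM in library B without asparagine and up to 0.100 CPM in library B with asparagine, and a difference was not detectable at this depth. Exons of Il1b share 25 bases with those of its antisense gene Il1bos.

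Il1r1, the chain that binds IL-1 alpha and IL-1 beta, lies on the plus strand of chromosome 1 from 40225080 to 40317257. It had 35.5 and 38.4 CPM without asparagine, against 51.8 and 48.5 CPM with asparagine. The groups did not overlap, and the gap between them was wider than the distance between libraries of a group. The log2 fold change was -0.44 ± 0.11 (SE, edgeR adjusted p = 0.116). Dropping library A or B without asparagine gave -0.38 and -0.50, and dropping library A or B with asparagine gave -0.39 and -0.49.

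Il1rap, the accessory chain shared by the receptors for IL-1 and IL-33, lies on the plus strand of chromosome 16 from 26581704 to 26730117. It had 37.5 and 35.8 CPM without asparagine, against 46.0 and 42.7 CPM with asparagine. The groups did not overlap, but the log2 fold change was small, -0.27 ± 0.11 (SE, edgeR adjusted p = 0.249). Dropping library A or B without asparagine gave -0.30 and -0.24, and dropping library A or B with asparagine gave -0.22 and -0.33. Its exons share 552 bases with those of the antisense gene Gm20319, and counts by gene do not separate its membrane form from its soluble form.

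Il1rl1, which encodes the IL-33 receptor ST2 in membrane and soluble forms that the counts do not separate, lies on the plus strand of chromosome 1 from 40429570 to 40465415. It had 1.47 and 1.25 CPM without asparagine, against 0.715 and 0.534 CPM with asparagine. Both libraries without asparagine lay above both with it, at 27 and 28 reads against 17 and 16. The log2 fold change was 1.13 ± 0.35 (SE, edgeR adjusted p = 0.171), and it ran from 0.92 to 1.34 in the fits with a library dropped. Its ligand gene Il33 had values in the opposite direction in the same libraries.

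**Figure D2:**
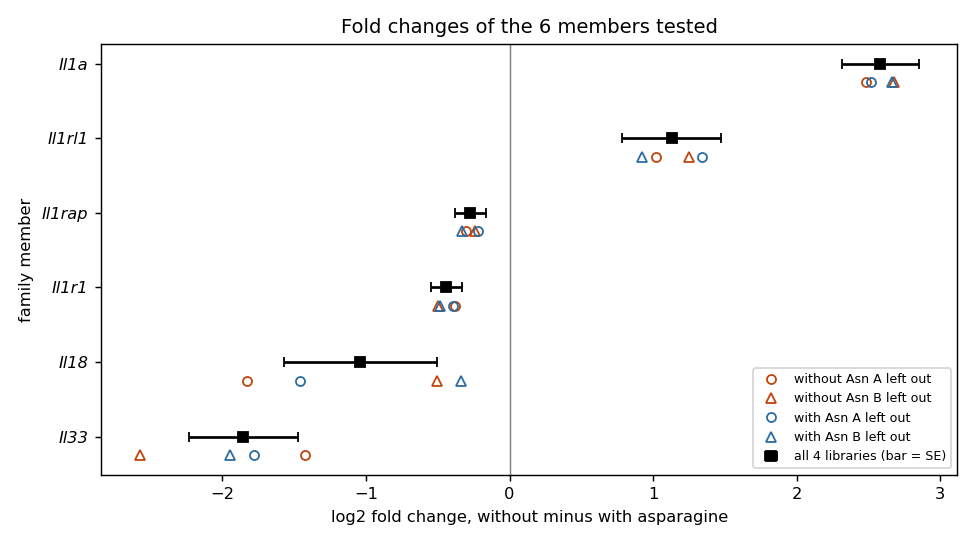
Log2 fold change (horizontal axis, without minus with asparagine) of the 6 tested members, largest at the top. Black squares with bars are the value and SE from all 4 libraries, and open symbols are the values with 1 library left out. Il1a stays between 2.48 and 2.67 and Il1r1 between -0.50 and -0.38, whereas Il18 runs from -1.83 to -0.34 and Il33 from -2.57 to -1.42.

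Over the 6 tested members, the groups did not overlap in 5, with Il1a and Il1rl1 higher and Il33, Il1r1 and Il1rap lower without asparagine. Among all genes tested the groups did not overlap in 52.5%, 26.1% being higher and 26.4% lower, so this count is no feature of the family. The ligands Il1a and Il33 did not share a direction with their binding chains, though of these genes only Il1a was called. Il1r1 and Il1rap, which together form the IL-1 receptor, were both lower. The ligand Il1a had a higher value and its receptor chain Il1r1 a lower one, and Il33 and Il1rl1 had the opposite arrangement.

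Levels were compared between genes as CPM per kilobase of exon, using the summed length of all annotated exons of a gene. Il1r1 was the highest member, at 5.81 without and 7.88 with asparagine as group means per kilobase. Il1rap followed, at 3.23 without and 3.90 with asparagine. The ranges of these genes over the 4 libraries overlapped neither with each other nor with that of the next gene. Below them the order depended on the medium. Without asparagine Il1a came next at 2.04 CPM per kilobase, then Il18 at 0.921 and Il33 at 0.213. With asparagine Il18 came next at 1.82 CPM per kilobase, then Il33 at 0.798 and Il1a at 0.337. Over the 4 libraries together the ranges of Il18 and Il1a overlapped, as did those of Il1a and Il33 and those of Il33 and Il1rl1. Il1rl1, at 0.198 without and 0.0905 with asparagine, and Il1b, at 0.187 without and 0.0350 with asparagine, followed in both media and overlapped with each other over the 4 libraries, and Il1rn was the lowest.

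**Figure D3:**
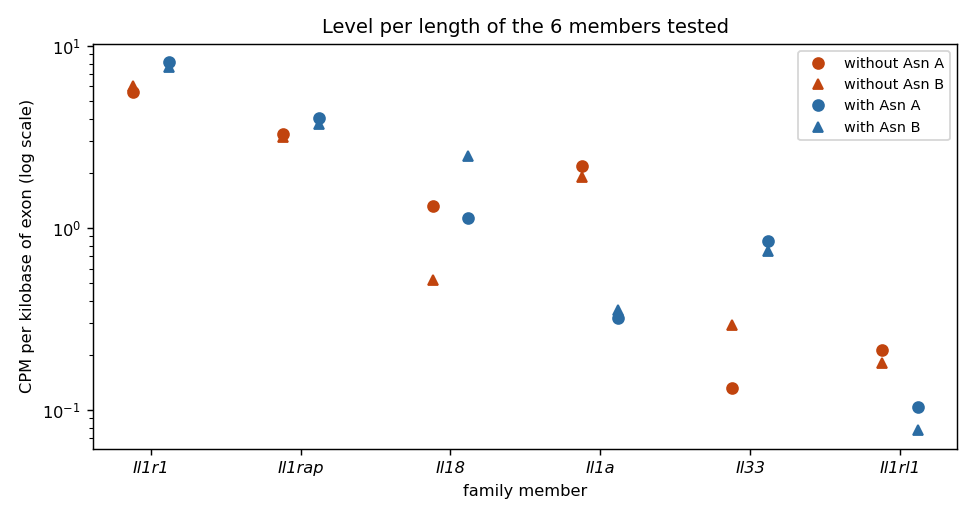
Level of the 6 tested members in CPM per kilobase of exon (vertical axis, log scale), ordered by their mean over the 4 libraries, with libraries without asparagine to the left of those with asparagine for each gene. Circles are library A and triangles library B. Il1r1 and Il1rap lie above the other members in every library, and Il1a and Il33 change places between the media.

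The other genes of the family were mostly silent. Of 13 further ligands, receptors and binding proteins in the table, 3 were tested, and the other 10 had at most 4 reads in a library. These untested genes included the IL-36 ligand genes (Il1f6, Il1f8 and Il1f9 in the table), the decoy receptor gene Il1r2 and the IL-18 receptor chain Il18r1. Il18rap, the accessory chain of the IL-18 receptor, rose to 15.5 and 14.7 CPM without asparagine, against 8.62 and 6.37 CPM with asparagine. Its log2 fold change was 1.02 ± 0.18 (SE, edgeR adjusted p = 0.0442), a call that was lost when library A with asparagine was dropped (1.24, adjusted p = 0.0684) and when library B of that medium was dropped (0.81, adjusted p = 0.398). The partner chain Il18r1 had 2 and 2 reads without and 1 and 4 reads with asparagine. Il18r1 and Il18rap lie next to Il1rl1 in the receptor cluster on chromosome 1, from 40465552 to 40500854 and from 40515362 to 40551705. Il18bp, the secreted inhibitor of IL-18, and Sigirr, a receptor that dampens IL-1 signalling, had log2 fold changes of 0.46 and -0.30 (adjusted p = 0.376 and 0.262).

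Most genes that mature and release the cytokines passed the filter on low counts, and none was called. The list held 18 genes, those of the inflammasome, caspases, gasdermins and calpains with S100a13 and Hax1. Of these, 13 were tested and 0 were called by edgeR or by DESeq2, beside 1.85% and 3.61% of all genes tested. The untested genes, Mefv, Nlrp1a, Nlrp1b, Nlrp3 and Aim2, had at most 7 reads in a library. Of the inflammasome sensor genes only Nlrc4 was tested, with 1.14 and 1.07 CPM without asparagine against 1.22 and 0.500 CPM with asparagine. An unadjusted edgeR p under 0.05 was found for 2 of the 13, beside 18.1% of all genes. Their median log2 fold change was -0.17, against 0.0089 over all genes tested. Casp1, the protease that cuts IL-1 beta and IL-18, had the smallest p, with 2.51 and 2.01 CPM without asparagine against 3.40 and 4.30 CPM with asparagine (log2 fold change -0.78, edgeR adjusted p = 0.176). The groups did not overlap for Casp1, as for 52.5% of all genes tested. Its log2 fold change ran from -0.94 to -0.59 in the fits with a library dropped. The sensor gene Nlrp3 was nearly absent, with 1 and 0 reads without and 3 and 4 reads with asparagine.

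Most genes of the signalling chain downstream of the receptors were expressed, and none was called. Of 25 genes from Myd88 and the IRAK kinases to the IkB kinases and MAP kinases, 24 were tested and 0 were called by edgeR or by DESeq2, beside 1.85% and 3.61% of all genes tested. An unadjusted edgeR p under 0.05 was found for 0 of the 24, beside 18.1% of all genes. Their median log2 fold change was -0.071, and the values ran from -0.27 to 0.20. The smallest p was that of Tab2, which encodes an adaptor of the kinase TAK1, with 292 and 329 CPM without asparagine against 374 and 367 CPM with asparagine (log2 fold change -0.25, edgeR adjusted p = 0.278). Dropping library B without asparagine gave 10 called signalling genes of 24, 2 higher and 8 lower, in a fit that called 41.8% of all genes.

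Known IL-1 target genes included chemokines and proteases with large fold changes in both directions. Of 30 targets, 24 were tested, and 6 rose and 2 fell without asparagine, beside 0.771% higher and 1.07% lower among all genes tested. The median log2 fold change of the list was 0.46, and 18 of its 24 tested genes had a value above 0, as did 6598 of all 12843 genes. The list was written with earlier results of these cells known, so it is not independent evidence of a direction. The chemokine gene Cxcl1 rose to 68.6 and 43.0 CPM without asparagine, against 14.0 and 15.2 CPM with asparagine (log2 fold change 1.93 ± 0.22, edgeR adjusted p = 0.0121). The matrix protease gene Mmp3 fell to 30.2 and 27.8 CPM without asparagine, against 96.5 and 89.8 CPM with asparagine (log2 fold change -1.69 ± 0.11, edgeR adjusted p = 0.00434). Cxcl5, a further neutrophil chemokine gene, rose to 31.6 and 27.9 CPM without asparagine, against 12.5 and 10.7 CPM with asparagine (log2 fold change 1.36). The complement gene C3 rose to 16.9 and 21.2 CPM without asparagine, against 7.31 and 8.94 CPM with asparagine (log2 fold change 1.23). In each of these genes both libraries without asparagine lay on the same side of both with it, as in 52.5% of all genes tested. The genes were named for their calls and the size of their change, so this adds no support. When the library A that stood apart was dropped, the log2 fold changes were 1.56 for Cxcl1, -1.74 for Mmp3, 1.28 for Cxcl5 and 1.38 for C3.

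The remaining called targets were named after their values were seen. They were Mmp9, Ptgs2, which encodes the prostaglandin synthase COX-2, and the monocyte chemokine gene Ccl2, which rose by 1.21, 0.74 and 0.72 on the log2 scale, and Ptges, which encodes the prostaglandin E synthase downstream of COX-2 and fell by 1.20 on the same scale. Dropping the library A that stood apart gave 1.49 for Mmp9, 0.71 for Ptgs2, 0.66 for Ccl2 and -0.99 for Ptges. Ptges had 9.54 and 13.2 CPM without asparagine, against 24.4 and 28.1 CPM with asparagine. The inhibitor genes Nfkbia and Tnfaip3, also chosen after their values were seen, had log2 fold changes of 0.63 and 0.54 and were not called (edgeR adjusted p = 0.144 and 0.166). Il6, a cytokine gene that IL-1 induces in many cells, had 5 and 2 reads without and 1 and 0 reads with asparagine. Leaving out library A or library B with asparagine left 4 of the 24 targets called, beside 0.522% and 0.459% of all genes. Leaving out library A or library B without asparagine gave 15 of 24 in each fit, beside 16% and 41.8% of all genes. Calls of Mmp9, Ptgs2 and Ccl2 were lost without either library with asparagine (adjusted p between 0.0855 and 0.499), that of C3 when library A with asparagine was dropped (0.119) and that of Ptges when library B with asparagine was dropped (0.0998).

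**Figure D4:**
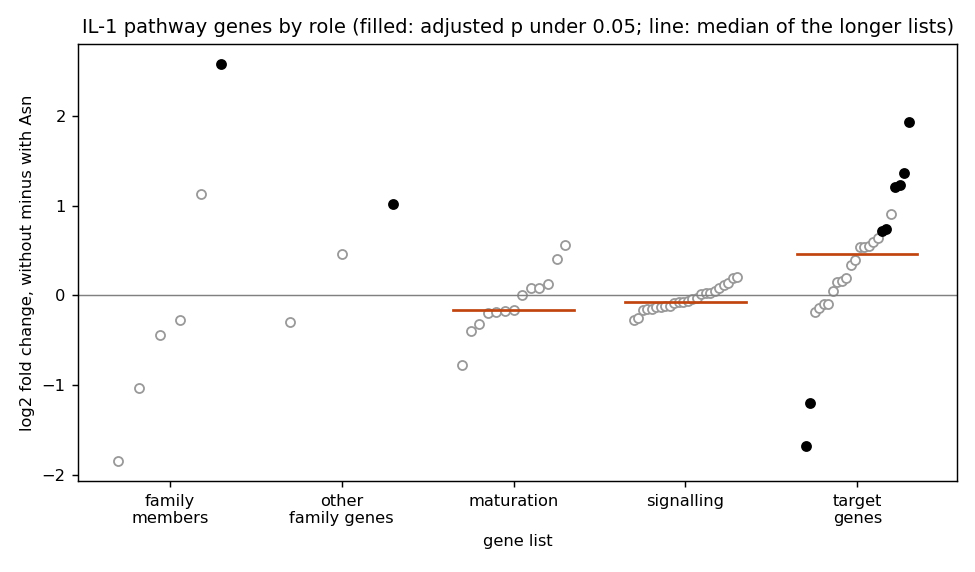
Log2 fold change (vertical axis, without minus with asparagine) of tested IL-1 pathway genes, grouped by role along the horizontal axis and ordered by value within each list. Filled points passed the edgeR test at an adjusted p under 0.05, open points did not, and lines are the medians of the lists with more than 10 tested genes. Called genes are 1 family member (Il1a), Il18rap and 8 targets, and the signalling genes lie between -0.27 and 0.20.

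The genes whose profile over the 4 libraries was nearest to that of Il1a, by Euclidean distance of centred log2 CPM among 11058 genes, were Prl2c2 (distance 0.213), Anxa8 (0.280) and Krt14 (0.299). Prl2c2 encodes a proliferin and has near-identical copies, so its own share of reads is uncertain, Anxa8 encodes an annexin, and Krt14 encodes the keratin of basal epithelium. Anxa8 had 5.07 and 3.80 CPM without asparagine, against 0.630 and 0.901 CPM with asparagine. Nearest to Il33 were Adamts9, a secreted protease gene (0.222), Rerg, a Ras-like GTPase gene (0.247), and the urate oxidase gene Uox (0.261). Uox had 0.382 and 1.03 CPM without asparagine, against 2.98 and 2.77 CPM with asparagine. Exons of Adamts9 overlap those of A730049H05Rik and Gm15737 on the opposite strand. Over 4 libraries in 2 groups, such likeness is a description only.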

How the data were processed

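RNA in 4 libraries, 2 without and 2 with asparagine, was profiled after extraction with a Qiagen kit and amplification with the NuGEN Ovation kit, per the labels' protocols. The authors deposited raw counts (whole numbers of reads for each gene symbol), with 5 HTSeq summary rows that took 60.1% to 70.0% of reads and entered neither library sizes nor tests. Bowtie2, HTSeq and the build mm10 are named in the submitters' processing notes. Versions, settings, annotation and strandedness of the counting are not stated there or in the labels. Bowtie2 does not by itself split reads over introns, so genes of many short exons may be under-counted.

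From the deposited counts, genes were kept by filterByExpr (minimum count 10, minimum total 15), scaled by TMM and tested with edgeR 4.0.16 (quasi-likelihood F test, group only, Benjamini-Hochberg over all genes, threshold 0.05) in R 4.3.3. SEs were worked back from F. CPM were scaled to TMM-adjusted totals, with a prior count of 2 in log2 CPM for profile distances. The procedure was also run on simulated data with a spread common to all genes and libraries, which did not model unequal spread between the groups. Chi-square statistics per degree of freedom of 42.7 between the libraries without and 4.99 between those with asparagine showed no library deposited as a copy. The libraries without asparagine thus differed more from each other, while the edgeR test takes a common spread for both groups. The labels do not say whether the libraries of a group are separate cultures. The p-values therefore measure only how these samples vary, and that variation may be technical. Positions and exon lengths are from GENCODE M21 and promoter windows from RefSeq on GRCm38.p6, the assembly of mm10.

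The members and lists were chosen with earlier results of these data known. Rules for naming: all 8 members, up to 4 called genes of each other list by size of change or the one with the smallest p, and the 3 nearest profiles (mean of at least 1 CPM, no Gm or Rik models) for the members with the largest and smallest fold change. Alternatives were DESeq2 size factors, upper quartile scaling, the DESeq2 1.42.0 Wald test, no filter on low counts, at least 5 CPM in 2 libraries, a block for the library letter, dropping each library in turn, and the 10 most abundant genes left out. Dropping a library leaves a single one in its group, which is assumed to vary like the other group. Further genes in the text were picked with their values in view.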

Additional observations from a re-analysis of the deposited data

How the results depend on the processing

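Of 182 fold changes recomputed under the alternatives for 17 named genes, 0 changed sign, 156 kept their side of the threshold, 10 lost a call and 16 gained one. The Il1a call held in every fit that tested it (log2 fold change 2.48 to 2.67). Genes called over the whole table numbered 237 in the main fit, 464 with DESeq2, 1334 (6.73%) with no low-count filter and 59 to 5366 (0.459% to 41.8%) with a library left out. Family members called numbered 1, against 2 with DESeq2, 4 with no low-count filter, 0 with the filter of 5 CPM, under which only 2 members were tested, and 1 to 5 with a library left out. Leaving out a library gave 4 to 15 targets against 8, 0 to 10 signalling genes against 0, and 0 to 7 other family and maturation genes against 1, which were 3 with no low-count filter. For that last group, and for genes named from the lists other than the family, the alternatives were applied after the data were seen. Apart from the narrower set of genes tested at 5 CPM, the cause was not tested. Scaling moved the median of all genes by at most 0.047 on the log2 scale. With the letter as a replicate block, 816 genes (6.35%) and 2 family members (Il1a and, lower, Il33 at adjusted p = 0.00408) were called. The labels do not say that a letter marks a shared culture or day, and same-letter deviations had a correlation of 0.123 across genes in 2 pairs. Members with under 30 reads in a library are limited by depth as well as by replicates.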
